A study of Mus musculus with 4 samples.

Results

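The regions described here are the 553 stretches of chromosome 10 that lay in a lamina-associated domain (LAD) of Tm7sf2-/- (KO) mouse hepatocytes and in no LAD of Tm7sf2+/+ (WT) hepatocytes. They are every chromosome 10 interval in the deposited list of differential regions (DRs) found only in KO, which holds 8208 such KO-only regions on 21 chromosomes. The regions were thus chosen by the measured LAD calls of both genotypes, and being LAD in KO and interior in WT is not a finding about them. The study mapped contacts with the nuclear envelope (NE) by DamID in freshly isolated primary hepatocytes to learn which contacts depend on Tm7sf2 (NET47), a transmembrane protein of the NE that is also a sterol reductase. There were 4 libraries, with LaminB1-Dam and Dam alone in WT and LaminB1-Dam and Dam alone in KO. All cells came from young adult mice on a C57BL/6 background, KO mice lacked Tm7sf2 in every tissue, and the constructs were delivered by lentivirus that reached only a part of the cells. DNA of several mice was pooled for each condition, so that there was 1 library for each genotype and construct and no replicate. No spread between animals can be given for any value below, no test between genotypes was made, and differences are described only. The lists hold intervals without a signal, so the reads behind a region are not known. The study's text gives a lower read depth for KO than for WT, and genotype and depth cannot be told apart here. The hepatocyte label could not be checked against marker genes, since no expression was measured in these libraries.

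LADs are long stretches of chromatin that touch the lamina, a mesh of lamins under the inner nuclear membrane, and most are poor in genes and in active transcription. In DamID, LaminB1 fused to a bacterial Dam methylase marks the adenine of GATC sites in DNA that comes near the lamina, and Dam alone gives the background. In liver cells many genes for other tissues lie in LADs, while the genes that hepatocytes transcribe most tend to lie in the interior.

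Because the assay reads DNA between GATC sites, each border of a region should fall on such a site, and this was the case for 1105 of the 1106 borders (99.9%). The 60 bases around each border of the longest region are shown with GATC in capitals, both on the plus strand of NCBIM37 (mm9), at chr10:24952194-24952253 and chr10:25192441-25192500.
first border: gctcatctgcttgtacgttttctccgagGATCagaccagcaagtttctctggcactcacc
last border: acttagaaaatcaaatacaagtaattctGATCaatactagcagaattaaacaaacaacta
The region begins with the last base of GATC at its first border and ends with the third base of GATC at its last border, and between them it held 539 GATC sites.

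Of all 1045 protein-coding genes of chromosome 10, 171 (16.4%) had their transcription start site in a KO-only region. Among 48 genes of liver function and metabolism on the chromosome, this held for 4. The 120 bases before each of these 4 start sites are shown because all of them lay inside KO-only regions. CG dinucleotides, which are dense at many promoters, are in capitals. All 4 genes lie on the minus strand, and the sequences read 5′ to 3′ on that strand, from NCBIM37 at chr10:87966819-87966938 (Chpt1), chr10:24431966-24432085 (Enpp1), chr10:19627496-19627615 (Pex7) and chr10:53795603-53795722 (Man1a).
Chpt1: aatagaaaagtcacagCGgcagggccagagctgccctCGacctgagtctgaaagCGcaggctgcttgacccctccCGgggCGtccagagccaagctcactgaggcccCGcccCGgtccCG
Enpp1: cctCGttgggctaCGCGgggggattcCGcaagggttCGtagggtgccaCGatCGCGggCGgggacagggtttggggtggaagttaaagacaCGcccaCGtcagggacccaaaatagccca
Pex7: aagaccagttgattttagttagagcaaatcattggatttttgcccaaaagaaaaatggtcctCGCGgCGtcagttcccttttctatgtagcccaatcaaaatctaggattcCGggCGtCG
Man1a: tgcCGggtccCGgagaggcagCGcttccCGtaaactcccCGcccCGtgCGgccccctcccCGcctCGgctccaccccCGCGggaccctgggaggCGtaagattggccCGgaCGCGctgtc
The window held 8 CG in Chpt1, 11 in Enpp1, 6 in Pex7 and 15 in Man1a. At least 5 CG, a motif that reads the same on both strands, were present in 63.2% of the 171 windows before start sites in KO-only regions of chromosome 10. The share was 65.6% for the 637 start sites in no LAD, 16.0% for the 212 in LADs of both genotypes and 54.3% for all 1045 protein-coding genes of the chromosome. By this count the windows of KO-only start sites stood beside those of the interior and apart from those of shared LADs. At least 63 olfactory and 7 vomeronasal receptor genes of the chromosome had LADs on them in both genotypes. The windows were not counted without these families, so their part in the contrast was not tested.

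The 553 regions covered 13.8 Mb, which is 10.6% of the length of chromosome 10. Chromosome 10 makes up 4.90% of the length of the chromosomes in the lists and held 6.74% of all KO-only regions and 7.27% of all KO-only bases. Among the 19 autosomes it had the highest share of its length in KO-only regions, ahead of chromosome 13 with 9.56% and chromosome 3 with 8.93%. The median of the other 18 autosomes was 6.78%, and chromosome 19 was lowest with 2.78%. Without the 10 Mb that held the most KO-only bases, 9.10% of the rest of chromosome 10 was KO-only, and it came after chromosome 13 taken whole. When every autosome was taken without its own richest 10 Mb, chromosome 10 was again in place 1, and as a share of the bases outside WT LADs it was in place 2, with 26.0% against 27.3% on chromosome 3.

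**Figure D1:**
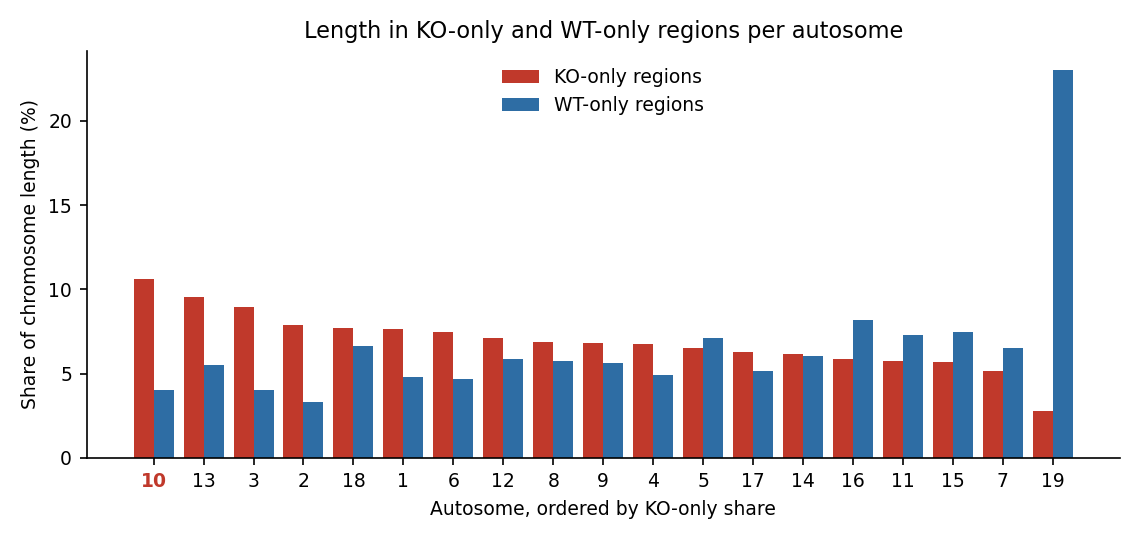
Share of chromosome length (%) in KO-only regions (red) and in WT-only regions (blue) for the 19 autosomes, ordered by the KO-only share. Chromosome 10 stands at the left with 10.6% KO-only and 4.04% WT-only, and chromosome 19 at the right with 2.78% and 23.0%.

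Loss and gain were unequal on this chromosome. The WT-only regions, in which a WT LAD was not LAD in KO, numbered 295 and covered 5.26 Mb, so that there were 0.380 WT-only bases for each KO-only base. This was the lowest ratio of the 19 autosomes, the next being 0.422 on chromosome 2 and 0.452 on chromosome 3. Without its richest 10 Mb chromosome 10 had a ratio of 0.455, and without the stretch from 10 to 30 Mb it had 0.519, both above those of chromosomes 2 and 3 taken whole. With regions of any length the ratio of chromosome 10 was 0.439, and with LADs of at least 20 kb it was 0.420. Other settings lowered it. It was 0.231 and 0.0878 for regions of at least 20 and 50 kb. With LADs joined across gaps of up to 20 and 50 kb it was 0.250 and 0.151. The ratios of the other autosomes were not computed at these settings, so its place among them there is not known. LADs covered 56.7% of chromosome 10 in WT and 63.1% in KO, a difference of 6.37 percentage points, where the next highest difference was 4.60 points on chromosome 3. KO LADs lay outside WT LADs over 18.0% of their bases and WT LADs outside KO LADs over 8.79% of theirs, and 67.2 Mb were LAD in both. The LADs were also cut differently: WT had 442 LADs with a mean length of 167 kb, 19 of them of at least 1000 kb, and KO had 776 with a mean of 106 kb, 3 of them that long. KO had more LADs than WT on every autosome, and the ratio of KO to WT LAD number on chromosome 10, 1.76, was below the median of 2.03 of the other autosomes.

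The KO-only regions were short beside the LADs. Their median length was 18.97 kb, the lower and upper quartiles were 13.5 and 28.3 kb, and the longest measured 240.2 kb. The 7044 KO-only regions of the other autosomes had a median of 17.9 kb and a longest of 175.8 kb. Regions of at least 50 kb made up 8.50% of those on chromosome 10 (47 of 553, 95% Wilson interval 6.45 to 11.1%, which covers counting error only) and 5.54% of those on the other autosomes. They held 25.1% of the KO-only bases of chromosome 10 against 16.9% elsewhere. The list has a minimum length of 10 kb, and the shortest regions inside it measured 10000, 10013 and 10022 bases. The subtraction of LADs left a further 167 stretches on chromosome 10 below that length, 0.939 Mb in all, the longest of which were 9848, 9840 and 9836 bases.

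**Figure D2:**
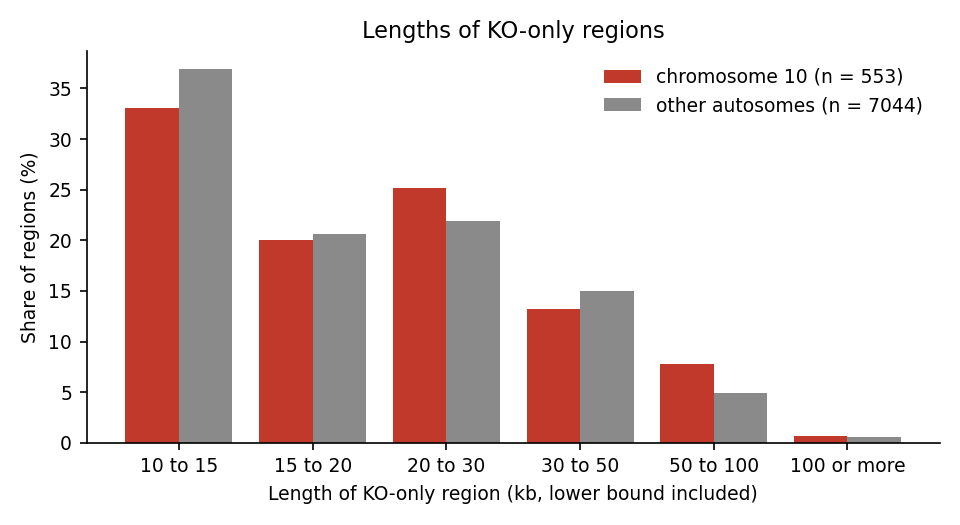
Share of KO-only regions (%) in 6 classes of length (kb) on chromosome 10 (red, 553 regions) and on the other 18 autosomes (grey, 7044 regions). Chromosome 10 had 33.1% of its regions between 10 and 15 kb against 36.9%, and 7.78% between 50 and 100 kb against 4.94%.

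Each region was placed within the KO LAD that holds it. A total of 266 regions (48.1%, Wilson interval 44.0 to 52.3%) were a whole KO LAD, that is, a LAD with no WT LAD base in it, and their median length was 21.0 kb. Another 159 (28.8%) formed an end of a KO LAD that ran on into a WT LAD, with a median of 19.7 kb. The other 128 (23.1%) lay inside a KO LAD with WT LAD on both sides, with a median of 14.3 kb. Over the pooled regions of the other autosomes the shares were 54.1, 25.7 and 20.2%, and the share of whole LADs ran from 46.5 to 65.2% among them, so that chromosome 10 lay within their range.

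The regions differed widely in their distance from WT LADs. More than 10 kb separated 246 of them (44.5%) from the nearest WT LAD, against 49.7% on the other autosomes, and 52 were more than 500 kb away. The 266 whole LADs were a median of 118 kb from a WT LAD. The most distant, at chr10:60614059-60624125, was 2000 kb away and held no protein-coding gene. At the other extreme, a KO LAD at chr10:115263269-115626210 took in 5 WT LADs and held 6 KO-only regions, 72.9% of it being WT LAD. The median gap between neighbouring KO-only regions was 55.6 kb, and the longest, at chr10:46518483-50308712, was 3790 kb. That gap was LAD over 99.6% of its length in WT and 93.0% in KO and held 1 protein-coding gene, Grik2, which encodes a kainate receptor subunit of neurons.

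Along the chromosome the regions were far from even. In segments of 10 Mb numbered from the centromeric end, segment 3 (20 to 30 Mb) had 99 regions over 2.91 Mb, 29.1% of its bases, and segment 2 (10 to 20 Mb) had 63 regions over 1.85 Mb, 18.5% of its bases. LADs covered 43.1% of segment 3 in WT and 69.5% in KO, and 52.5% of segment 2 in WT and 68.6% in KO. These segments, which were singled out after their values were seen, made up 15.4% of the chromosome's length and held 29.3% of its KO-only regions and 34.4% of its KO-only bases. Among the 246 such segments of all autosomes with at least 5 Mb of assembled sequence, segment 3 had the highest KO-only share and segment 2 was in place 3, behind a segment of chromosome 13 with 19.4%, and the median was 6.72%. As a share of the bases outside WT LADs, segment 3 had 51.1% and was in place 9, and segment 2 had 38.8% and was in place 33, against a median of 18.7%. Segment 8 was at the low end, with 10 regions, 1.67% of its bases and 175 protein-coding genes. Segment 11 was LAD over 91.3% of its bases in WT and 90.0% in KO and had 16 regions. As a share of the bases outside WT LADs its KO-only regions came to 42.9%, and those of segment 4 to 40.2%, both above segment 2. In windows of 1 Mb, 10 of 127 were more than 30% KO-only, 8 of them in segments 2 and 3, and 22 windows had no KO-only base.

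**Figure D3:**
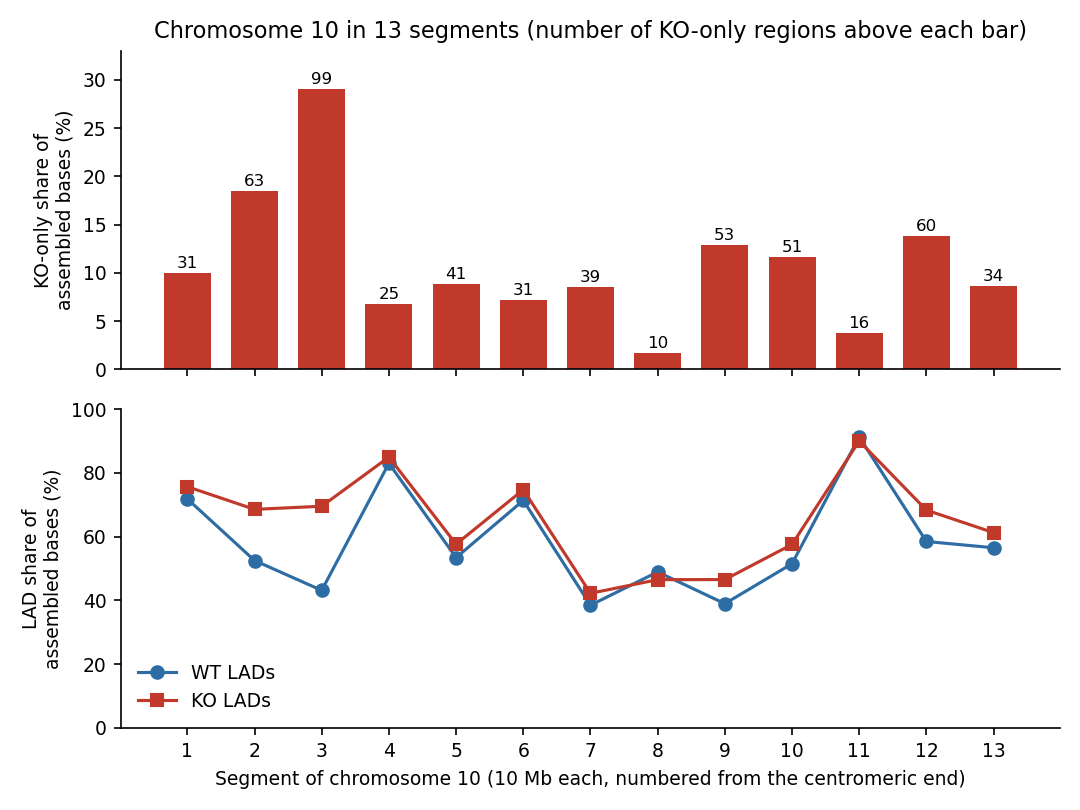
KO-only share of assembled bases (%, upper panel, with the number of regions above each bar) and share of assembled bases in WT LADs (blue circles) and KO LADs (red squares) (%, lower panel) in the 13 segments of chromosome 10. The bars of segments 2 and 3 reach 18.5% and 29.1%, and there the KO line lies well above the WT line, while the lines nearly meet in segment 11.

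Of the 10 longest regions 5 lay in segments 2 and 3, 5 were a whole KO LAD and 5 an end of a KO LAD. The longest, the 240.2 kb whole LAD at chr10:24952225-25192471, was 46.6 kb from the nearest WT LAD. It lay on Akap7, which encodes an anchor protein for protein kinase A and had 77.0% of its span in this and further KO-only regions. It also held the start site and overlapped 7 of the 22 exons of Epb4.1l2, which encodes a protein of the membrane skeleton. The next, 157.6 kb at chr10:121205622-121363203, held a large part of Srgap1, which encodes a GTPase-activating protein of the Slit and Robo pathway. Together with further KO-only regions, it put 69.8% of the Srgap1 span in KO-only regions, with some overlap of 20 of its 22 exons. The third, 136.7 kb at chr10:20785755-20922427, held all 16 exons of Myb, a transcription factor of blood progenitors, and the end of Ahi1, which encodes a protein of the cilium base. Myb had no WT LAD within 59.0 kb.

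The fourth region, 106.9 kb at chr10:13186051-13292960, held all of Fuca2 (a fucosidase), Pex3 (needed to build peroxisome membranes) and Adat2 (a tRNA deaminase subunit), with the start site of Phactr2 (a regulator of phosphatase and actin). The fifth, 98.5 kb at chr10:39576876-39675368, held 2010001E11Rik whole with parts of G630090E17Rik and of Rev3l, which encodes the catalytic subunit of DNA polymerase zeta. The sixth, 94.3 kb at chr10:23618977-23713256, began in Vnn1, a pantetheinase gene, and held Taar1 to Taar6 whole and 81.2% of Taar7a. A 90.3 kb region at chr10:24375578-24465861, 147 kb from a WT LAD, held 75.9% of the span of Enpp1. An 83.2 kb region at chr10:98543494-98626737 held Galnt4, whose enzyme starts mucin-type glycosylation, and Phxr2 whole, with 62.7% of the span of Poc1b, a centriole gene. The remaining 2 of the 10, of 85.4 and 80.8 kb, held no protein-coding gene.

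**Figure D4:**
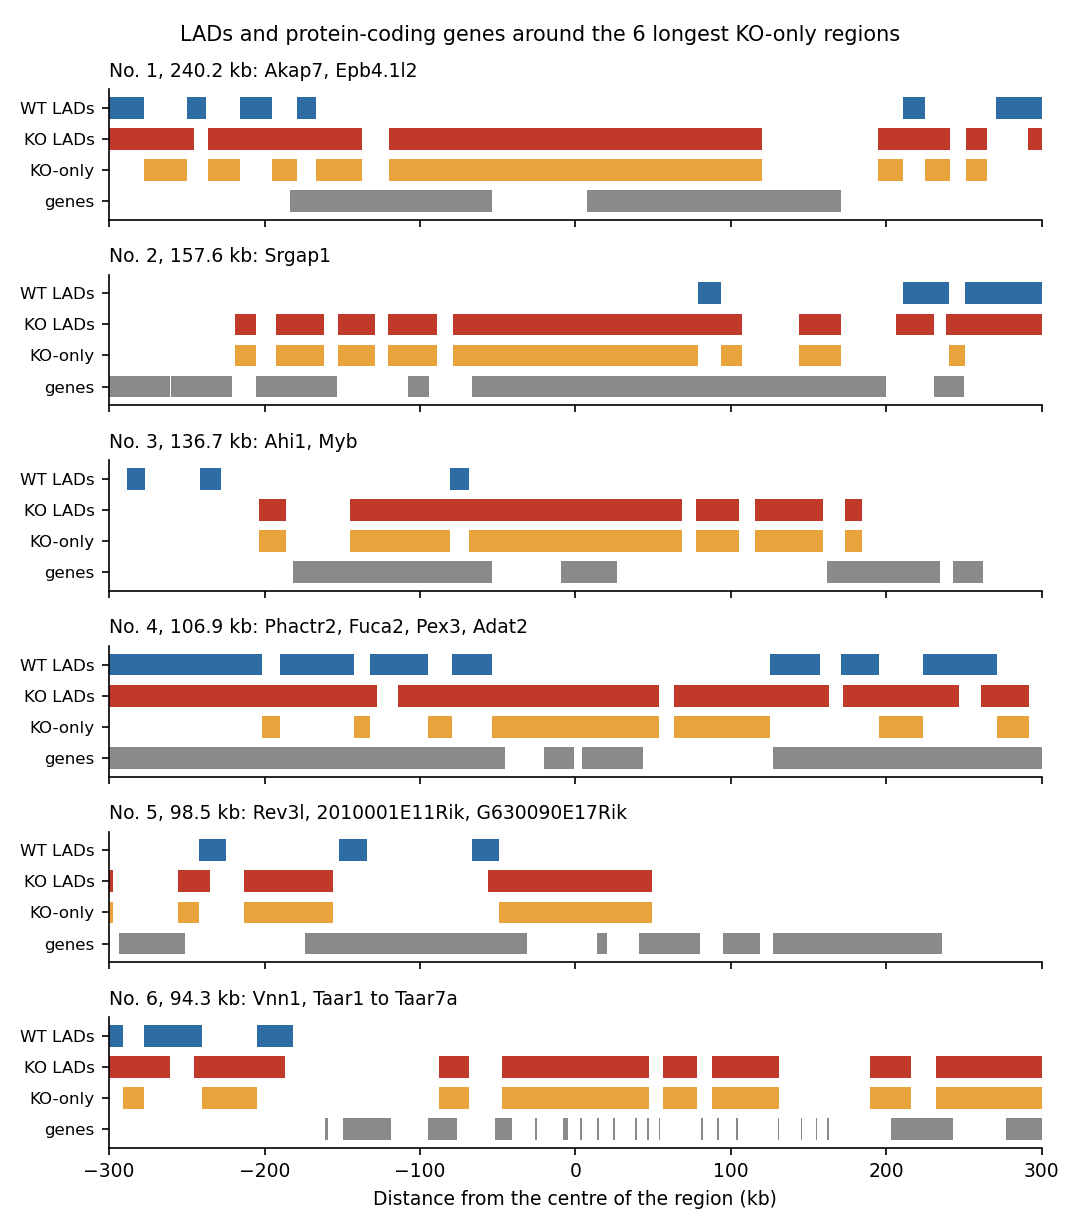
WT LADs (blue), KO LADs (red), KO-only regions (orange) and spans of protein-coding genes (grey) within 300 kb of the centre of the 6 longest KO-only regions, by distance from the centre (kb). The region in the middle of the first and last panels is a whole KO LAD with no WT LAD touching it, and the other 4 join a WT LAD at an end.

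The base composition of the KO-only regions lay between that of shared LADs and that of the interior. On chromosome 10 GC content was 42.7% in KO-only regions, 39.3% in LADs of both genotypes, 40.3% in WT-only regions and 44.8% in bases that were LAD in neither. CG dinucleotides followed the same order, with 10.6, 6.58, 7.11 and 12.0 per kb. The other autosomes had the same order of GC content, with 43.3, 39.5, 40.8 and 45.2%. Single KO-only regions ran from 34.7 to 53.8% GC with a median of 42.7%. GATC sites, on which the resolution of the assay depends, had a density of 2.33 per kb in KO-only regions and 2.32 per kb in the interior, against 2.58 per kb in shared LADs, and a KO-only region held a median of 43 sites. The KO-only regions also stood in the middle by gene content. Gene spans took up 45.7% of KO-only bases, 28.9% of shared LAD bases and 58.5% of bases in neither, and start sites numbered 12.4, 3.15 and 16.6 per Mb.

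A gene that shared 1 or more bases with a DR was classed as IP (interior in WT and peripheral in KO, in a KO-only region), PI (the reverse, in a WT-only region) or AMB (both). The others were PP where a LAD lay on the gene in each genotype and II otherwise. Of the 1045 protein-coding genes of chromosome 10, 265 overlapped a KO-only region, or 25.4%, where the share over all 22367 protein-coding genes was 20.1%. The classes were 231 IP, 34 AMB, 37 PI, 198 PP and 545 II. IP genes made up 22.1% of the chromosome's genes against 17.1% of all genes, and PI genes 3.54% against 5.43%. The start site lay in a KO-only region in 171 genes, 16.4% against 12.0%. Since the regions chose these genes, nothing beyond the amount of KO-only chromatin is read from these shares. Segments 2 and 3 held 64 of the IP genes among 114 genes in all.

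Overlap was often partial. IP genes had a median of 44.4% of their span in KO-only regions, 56 were inside them whole, 23 had under 10% there, and 173 of the 231 had no WT LAD on them. IP genes had a median span of 44.6 kb, against 13.8 kb for II and 1.87 kb for PP genes. PI and AMB genes were longer, with medians of 106 and 191 kb, and a longer span gives more room for an overlap. No protein-coding gene lay in 228 of the 553 regions (41.2%), 278 held 1 and 47 held at least 2, up to 8. The genes with the most KO-only sequence were Srgap1 with 186 kb, Syn3 with 160 kb, Pde7b with 159 kb, Ptprk with 142 kb and Ppm1h with 137 kb. Syn3 encodes a synapsin, Pde7b a phosphodiesterase of cAMP, Ptprk a receptor tyrosine phosphatase and Ppm1h a serine/threonine phosphatase. Syn3 was AMB, with 3.91% of its span in a WT-only region, and the other 4 were IP.

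Among the 48 liver and metabolism genes 10 were IP, 1 was PI and 37 were II, and the 20.8% that overlapped a KO-only region stood beside 25.4% of all genes of the chromosome. Chpt1, which encodes an enzyme of phosphatidylcholine synthesis, had the largest share, with 91.9% of its span and at least a part of all 9 exons in a single 50.9 kb KO LAD at chr10:87919653-87970544. Enpp1, whose product makes extracellular pyrophosphate, had 75.9% of its span in a KO-only region that overlapped 16 of 25 exons. Rdh9, of the retinol dehydrogenase family, had 65.7%, and the pantetheinase genes Vnn3 and Vnn1 had 60.5% and 57.9%, all 3 without the start site. Pex7, the import receptor for a class of peroxisomal enzymes, had 32.0%, from regions at each end of the gene that left its middle outside. Man1a, a Golgi mannosidase, had 14.3%, in a region over its start site and another at its far end, where a WT LAD also touched the gene. Enpp3 (47.8%), Cry1 (22.7%) and Sgk1 (9.81%) made up the rest.

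Of the 48 genes 37 had no LAD on them in either genotype. Hal (histidine ammonia lyase), Nr1h4 (the bile acid receptor), Igf1 (the growth factor) and Lss (lanosterol synthase) were among these. Acss3, an acyl-CoA synthetase gene, was the PI gene of the list, with 13.9% of its span in WT-only regions. By position, 7 of the 48 genes lay in segments 2 and 3 and 6 of them were IP (Vnn1, Vnn3, Enpp1, Enpp3, Sgk1 and Pex7), in segments where 64 of all 114 genes (56.1%) were IP.

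**Figure D5:**
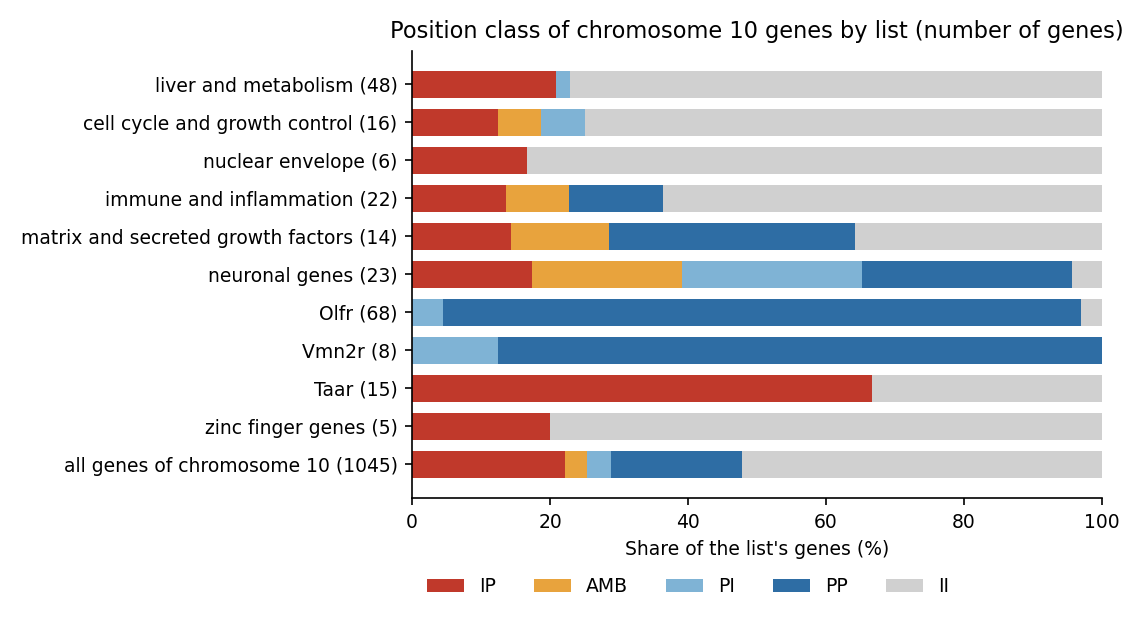
Share of genes (%) in each position class for the gene lists of chromosome 10, with the number of genes in brackets. Colors stand for IP (red), AMB (orange), PI (light blue), PP (dark blue) and II (grey). The trace amine receptor genes (Taar) are 10 IP and 5 II, and the olfactory receptor genes (Olfr) are nearly all PP.

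The families of sensory receptor genes on the chromosome had unlike classes. All 15 Taar genes, for receptors of trace amines, lay in segment 3 with no WT LAD on any of them, and 10 were IP (Taar1 to Taar6, Taar7a, Taar7e, Taar7f and Taar8a) and 5 were II. Of all genes of segments 2 and 3, where they lie, 56.1% were IP. Of 68 Olfr genes, for olfactory receptors, 63 were PP, 3 PI and 2 II, and none overlapped a KO-only region. Of 8 Vmn2r genes, for vomeronasal receptors, 7 were PP and 1 was PI. Over all genes of the chromosome 18.9% were PP, 3.54% were PI and 25.4% overlapped a KO-only region. Members of these families resemble each other closely, and how reads that fit several copies were treated is not given in the sources used here.

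The smaller lists are given beside the 25.4% of all genes of the chromosome that overlapped a KO-only region and the 22.1% that were IP. Of 16 genes of the cell cycle and growth control, Myb and 4930547N16Rik (Parpbp, a regulator of DNA repair, 40.6% of its span) were IP. Nedd1, of the centrosome, was AMB with 48.2% in KO-only and 19.1% in WT-only regions, E2f7 was PI and 12 were II, among them Cdk1, Cdk2 and Cdk4. Of 6 nuclear envelope genes, Syne1, which encodes the giant spectrin repeat protein nesprin-1, was IP with 13.8% of its 530 kb span in 4 KO-only regions that overlapped 24 of 144 exons, and 73.5% of it was WT LAD. The other 5, Lmnb2, Tmpo, Lemd3, Nup107 and Nup43, were II.

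Of 22 immune genes 3 were IP, 2 AMB, 3 PP and 14 II, so that 22.7% overlapped a KO-only region, near the 25.4% of the chromosome. The IP genes were Prdm1, a transcription factor of plasma cells, with 23.7% of its span, the stress kinase gene Map3k5 with 5.87%, and Tnfaip3, an inhibitor of NF-kB signaling, with 5.07% at its start site. Of 14 genes of matrix and secreted factors 2 were IP, 2 AMB, 5 PP and 5 II, an overlap of 28.6%. The IP genes were Col10a1, a collagen of growth plate cartilage, which was KO-only over its whole span, and Ntn4, a netrin of basement membranes, with 48.0% and the start site. The 5 PP genes took in the small proteoglycan genes Dcn, Lum, Kera and Epyc, which were LAD over their whole span in both genotypes. The neuronal list gave 4 IP, 5 AMB, 6 PI, 7 PP and 1 II among 23 annotated genes for 21 symbols, since Nkain2 is annotated as 3 separate genes, and an IP gene among the 4 is an Nkain2 entry of 0.558 kb. Its overlap with KO-only regions was 39.1%, and PI genes were 3.54% of the chromosome's genes. Of the 23 genes 20 had a WT LAD on them, and the overlap was a small share of the span in Pcdh15 (0.390%), Ctnna3 (0.709%), Anks1b (2.24%) and Syt1 (5.47%). The zinc finger list took only genes with a Zfp symbol, not every gene that encodes zinc fingers. Of its 5 genes Zfp365 was IP with 96.2% of its span and 4 were II, against 22.1% IP on the chromosome.

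Cry1 and Bicc1 are among the chromosome's genes that the study names for their position. Cry1, a repressor of the circadian clock, had 12.1 kb in a single whole KO LAD of 18.0 kb at chr10:84588557-84606539, which overlapped 5 of its 13 exons and not its start site, with the nearest WT LAD 38.1 kb away. Bicc1, which encodes an RNA-binding protein, had no KO-only base. It was LAD over 84.5% of its span in WT and 52.2% in KO, with 38.0% in WT-only regions.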

How the data were processed

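Intervals were the deposited lists of WT LADs, KO LADs, WT-only and KO-only regions. They give start and end on mm9, with no signal. Per the paper's methods and the submitters' processing notes (BWA and limma, versions not given in the sources used here), the authors mapped reads to mm9, computed a log2 ratio, LaminB1-Dam over Dam, for each DpnI fragment, called LADs with DNAcopy at default settings and subtracted the LAD lists. Repeating the subtraction with a minimum of 10 kb returned all 8208 KO-only regions with identical borders.

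Overlaps, distances and composition were computed with Python 3.11.15 on NCBIM37 and its GENCODE annotation, and drawn with matplotlib 3.10.9. Positions are 1-based, and exons are those of the coding transcript with the most exonic bases. Interval steps were tested on simulated data with numpy 2.4.6, with 0 errors. The genes named were those on the 10 longest regions, up to 4 of each list with the most KO-only span or a KO-only start site, Cry1, Bicc1 and the 5 genes with the most KO-only bases. Some genes of the lists are not reported here by name. Further genes of short lists, all 15 Taar genes and several II and PP genes were named after their values were seen. The regions, lists and alternatives were chosen with earlier results of these data known. Values were counted as unchanged within a factor of 1.5 or, for shares of regions, within the Wilson interval. Composition without repeats was not run, since the genome used is not soft-masked.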

Additional observations from a re-analysis of the deposited data

How the results depend on the processing

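No paired analysis was possible because each genotype and construct had a single library. Of the alternative settings 52 of 74 left the value within its limits. A turn of direction was defined only for the difference in LAD coverage, which stayed positive. For GC content and GATC density a factor of 1.5 is so wide a limit that staying within it says little. The number of KO-only regions fell from 553 to 259 and 47 with a minimum of 20 and 50 kb and to 229 when LADs were joined across gaps of up to 50 kb. Their bases fell from 13.8 to 3.47 Mb at 50 kb and to 9.07 Mb without segments 2 and 3. The ratio of WT-only to KO-only bases went from 0.380 to 0.231 and 0.0878 with a minimum of 20 and 50 kb. It was 0.250 and 0.151 with LADs joined across 20 and 50 kb. It rose to 0.439 with regions of any length and to 0.420 with LADs of at least 20 kb. Without the richest 10 Mb it was 0.455, and without segments 2 and 3 it was 0.519, both above chromosome 2 taken whole. The difference in LAD coverage rose from 6.37 to 10.2 points with LADs joined across 50 kb. The share of regions that are a whole KO LAD was 55.2% at 20 kb, 36.9% with no minimum length, and 43.1% and 38.4% with LADs joined across 20 and 50 kb. The share over 10 kb from a WT LAD was 51.4% at 20 kb, 34.2% with no minimum and 37.6% with LADs joined across 50 kb. With no minimum the same 266 whole LADs and 246 distant regions were counted over 720 regions in place of 553. Chromosome 10 went from place 1 to place 2 without its richest 10 Mb, to place 3 without segments 2 and 3 (a choice made after seeing the data, as were the 2 that follow), and to place 2 by share of bases outside WT LADs, and kept place 1 with every autosome cut by its richest 10 Mb. With at least 50% of the span required, 108 genes were IP and their median share was 100%. The cause of the other shifts was not tested. Since the lists hold intervals only, the reads behind a single region are not known.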

Other observations

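Genes without a protein product were also annotated in the KO-only regions of chromosome 10. Of 51 lincRNA genes 19 overlapped a KO-only region (37.3%), against 21.2% of 1181 on the other autosomes. Of 81 pseudogenes 17 did (21.0%, against 8.38%), of 59 miRNA genes 8 did (13.6%, against 8.66%), and of 71 snRNA genes 5 did (7.04%, against 7.54%). The shares were 21.0% against 13.6% for processed transcripts and 10.3% against 7.34% for snoRNA genes. They were 22.7% against 8.03% for 22 misc_RNA genes and 22.2% against 8.05% for 9 rRNA genes. Protein-coding genes had 25.4% against 19.1%, and chromosome 10 had more KO-only length, so no trait of a gene type is read from these shares. Genes of these types can share their place with protein-coding genes or with each other, which was not counted. The counts may therefore not be independent of those given above.

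The WT-only regions of the chromosome were shorter than the KO-only regions, with a median of 14.5 kb and a longest of 70.2 kb, and 128 of the 553 KO-only regions had a WT-only region within 50 kb. Start sites numbered 1.90 per Mb in WT-only regions, against 12.4 per Mb in KO-only regions.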
